A study of Homo sapiens with 6 samples.

Results

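The genes described here are 10 immediate-early genes of the AP-1 and EGR type, taken by name from the 67140 genes of the count tables: the FOS family (FOS, FOSB, FOSL1, FOSL2), the JUN family (JUN, JUNB, JUND), ATF3, EGR1 and IER2. RNA-Seq was performed on U2OS, an established human osteosarcoma line labelled as wild-type bone cells of epithelial type, in 3 groups of 2 libraries: untreated control cells, cells given adriamycin at 1.5 ug/ml for 4 h, and cells given etoposide at 100 uM for 4 h. Adriamycin (doxorubicin) is an anthracycline that intercalates into DNA and poisons topoisomerase II, and etoposide is a topoisomerase II poison that does not intercalate. Nothing in the labels says that the libraries of a group came from separate cultures, so the spread between them may be technical. The control and adriamycin tables used here hold the first 292, 280, 220 and 221 genes of the annotation order. They contain 0 of the 10 genes, so all values below come from the etoposide libraries, and the comparison with control or adriamycin-treated cells was not analysed here. The etoposide libraries held 21450766 counts in replicate 1 and 14244235 in replicate 2.

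AP-1 is a transcription factor made of a FOS-type and a JUN-type protein, or of a pair of JUN-type proteins, held together by leucine zippers. FOS-type proteins cannot pair with themselves, whereas JUN-type proteins can, and ATF3 pairs with JUN proteins or with itself. Most of these genes are transcribed within minutes of a stimulus from factors already bound to their promoters, without new protein synthesis, and many of their mRNAs are short-lived because of AU-rich elements near their 3' ends. EGR1 is a zinc finger factor induced through serum response factor (SRF), and IER2 is a small nuclear protein of the same early wave.

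The promoter bases are shown for FOS, FOSB, EGR1 and the JUN family. These bases carry matches to some of the elements through which such genes are classically switched on. They are the 210 bases before the RefSeq start on GRCh38.p14, written 5' to 3' on the strand of the gene, with the matches to the CArG box, the cyclic AMP response element (CRE, TGACGTCA) or its core (TGACG), the JUN-type AP-1 site (TGACATCA), the TATA box (TATAAA) and the CCAAT box in capitals on either strand. The stretches are chr14:75278618-75278827 (plus strand) for FOS, chr19:45467786-45467995 (plus) for FOSB, chr5:138465269-138465478 (plus) for EGR1, chr1:58784048-58784257 (minus) for JUN, chr19:12791276-12791485 (plus) for JUNB and chr19:18281623-18281832 (minus) for JUND.
FOS: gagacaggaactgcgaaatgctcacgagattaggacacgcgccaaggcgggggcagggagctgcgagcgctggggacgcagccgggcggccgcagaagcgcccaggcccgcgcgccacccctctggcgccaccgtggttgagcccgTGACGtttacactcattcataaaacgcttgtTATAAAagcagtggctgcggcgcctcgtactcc
FOSB: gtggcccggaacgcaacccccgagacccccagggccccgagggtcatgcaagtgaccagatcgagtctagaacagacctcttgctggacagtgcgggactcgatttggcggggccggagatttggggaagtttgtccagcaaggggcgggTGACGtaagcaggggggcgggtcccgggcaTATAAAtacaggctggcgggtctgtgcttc
EGR1: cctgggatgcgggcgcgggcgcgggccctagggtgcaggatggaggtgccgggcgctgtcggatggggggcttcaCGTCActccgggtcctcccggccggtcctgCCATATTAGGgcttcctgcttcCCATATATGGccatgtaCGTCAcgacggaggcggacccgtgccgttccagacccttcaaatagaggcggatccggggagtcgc
JUN: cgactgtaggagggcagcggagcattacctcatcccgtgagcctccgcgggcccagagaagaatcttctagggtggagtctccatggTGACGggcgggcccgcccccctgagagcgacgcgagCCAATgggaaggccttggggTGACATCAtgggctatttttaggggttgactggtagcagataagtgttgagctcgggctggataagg
JUNB: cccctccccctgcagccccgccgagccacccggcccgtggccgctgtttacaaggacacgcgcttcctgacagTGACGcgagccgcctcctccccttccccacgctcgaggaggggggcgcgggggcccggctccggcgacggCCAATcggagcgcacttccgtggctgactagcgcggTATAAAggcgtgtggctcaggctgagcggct
JUND: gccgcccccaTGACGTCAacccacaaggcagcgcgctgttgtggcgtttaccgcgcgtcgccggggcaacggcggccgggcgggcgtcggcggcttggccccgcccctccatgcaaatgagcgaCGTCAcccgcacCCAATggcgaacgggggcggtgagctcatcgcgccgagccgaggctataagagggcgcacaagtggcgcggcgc

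The motifs were searched on both strands in windows from 250 bases before to 50 after the start. The search covered 35116 RefSeq promoters and the entries of 9 of the 10 genes, ATF3 having 2 entries. Neither entry of ATF3 lies at the start of its canonical transcript, so the bases before that start were not searched. FOSL1 had no entry. Positions are those of the first base of a match on the strand of the gene, with -1 directly before the start. Within this window the CArG box, the site bound by SRF, was found in EGR1 alone among the 9 genes, at -105 and -83. It was in 1.29% of all promoters. Bases farther upstream were not searched, so a gene without a match here may hold a CArG box there. The CRE core, the recognition element of the CREB and ATF proteins, was found in 8 of the 9 genes, against 24.6% of all promoters. It was at neither start searched for ATF3. It lay at -64 in FOS, -60 in FOSB, -66 and -135 in EGR1, -123 in JUN and -137 in JUNB. JUND held the whole CRE at -200, which also counts as a pair of core matches at -200 and -197, and a further core match at -86. The whole CRE was in 1.85% of all promoters.

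The JUN-type AP-1 site TGACATCA, known from the JUN promoter as the element through which JUN and ATF2 act on JUN itself, lay at -67 in JUN and at -123 before the upstream start of ATF3, and in 2.61% of all promoters. The consensus AP-1 site TGAGTCA was found in FOSL2, at position 5, and in 4.95% of all promoters. A TATA box was found at -33 in FOS, -30 in FOSB and -31 in JUNB. The same letters also matched at -230 before the downstream start of ATF3, much farther from the start than in those genes. Matches anywhere in the window were in 11.5% of all promoters. CCAAT boxes were found in JUN, JUNB, JUND and ATF3, against 34.6% of all promoters, and the Sp1 site GGGCGG in 7 of the 9 genes, against 45% of all promoters. The EGR site GCGTGGGCG was found in 0 of the 9 genes and in 0.795% of all promoters. These are matches of letters in one window, and no test was made of them.

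**Figure D1:**
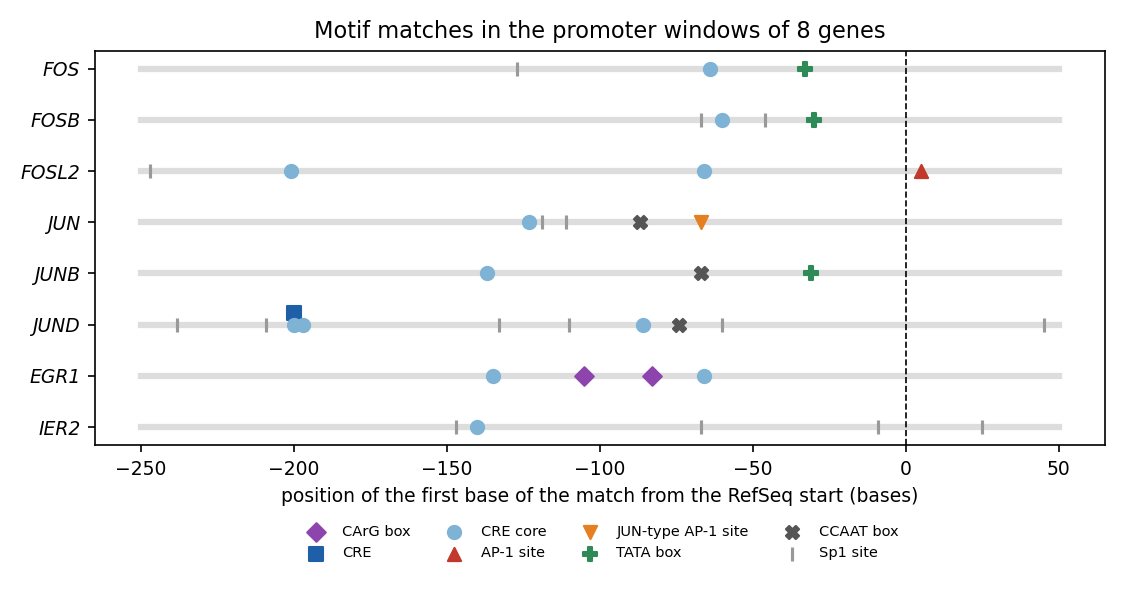
Motif matches in the promoter windows of 8 of the genes, by distance in bases from the RefSeq start (dashed line), with 1 row per gene and 1 symbol per motif on either strand. CRE core matches sit in all 8 windows, the CArG boxes in EGR1 at -105 and -83, and the TATA boxes of FOS, FOSB and JUNB between -33 and -30. ATF3 is not drawn: it had no CRE core match at the starts searched, neither of which is that of its canonical transcript. FOSL1 had no entry.

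All 10 genes had counts in both etoposide libraries, from 34 counts for FOSB in replicate 2 to 5352 for JUN in replicate 1. Together they took 0.103% of the counts in replicate 1 and 0.108% in replicate 2. To compare genes of unequal length, levels are given as TPM, that is, counts divided by the length of the annotated exons of the gene and scaled to a sum of 1000000 per library. Where a gene is compared with itself, CPM is given, counts scaled to the same sum with no length. TPM values summed over the 10 genes came to 1233 and 1270. The median over the 17148 annotated genes with at least 10 counts in both libraries was 12.33 TPM. Of the 10 genes, 8 lay above this median and 2 under it (FOS and FOSB), and 5 lay in the top 10 percent of genes (JUNB, JUND, JUN, FOSL1 and FOSL2).

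**Figure D2:**
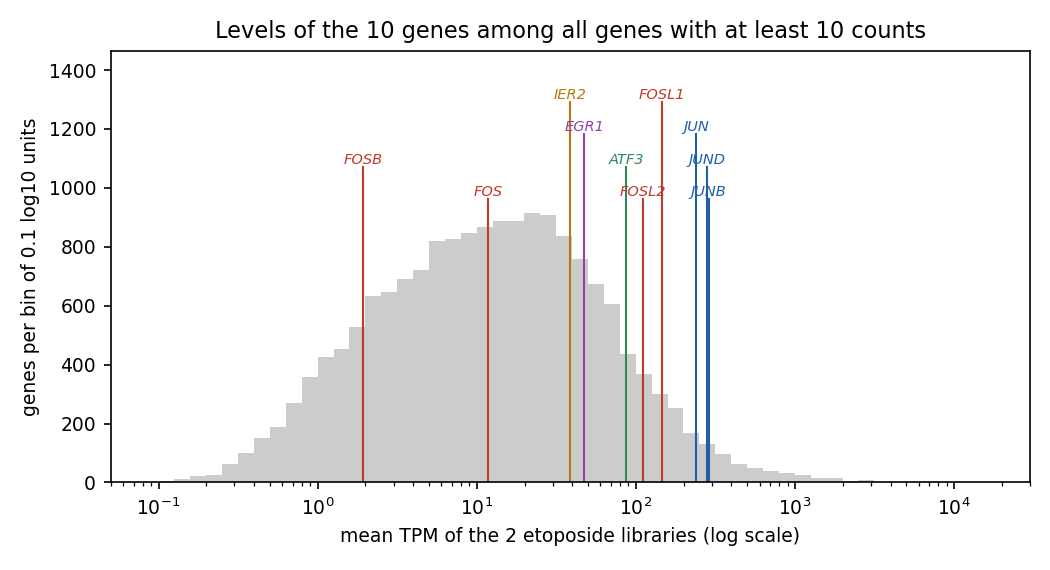
Distribution of the mean TPM of the etoposide libraries over 17148 genes with at least 10 counts in both (grey bars, log scale), with a line for each of the 10 genes. FOSB at 1.93 TPM lies in the lower tail, FOS at 11.8 TPM beside the median, and JUN, JUNB and JUND between 239.6 and 287.6 TPM in the upper tail.

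The JUN family held the 3 highest levels. JUNB, a JUN protein that activates weakly and often opposes JUN at single AP-1 sites, stood at 293.7 TPM in replicate 1 and 281.5 in replicate 2, a mean of 287.6 ± 8.62 (SD, n = 2). JUND, the JUN protein that most resting cells express, stood at 285.8 and 272.4 TPM, a mean of 279.1 ± 9.49. The library values of JUNB and JUND overlapped, although JUNB was the higher by 1.03-fold in both. JUN, the strongest activator of the family, stood at 236.9 and 242.3 TPM, a mean of 239.6 ± 3.81, below JUND in both libraries without overlap. The 3 genes thus made up like portions of the family: JUNB 35.7% ± 0.436, JUND 34.6% ± 0.563 and JUN 29.7% ± 0.999 of its summed TPM (SD, n = 2). JUN (chr1:58776845-58784048), JUNB (chr19:12791486-12793315) and JUND (chr19:18279694-18281622), all in GRCh38, share a structure that no other of the 10 genes has, a canonical transcript of 1 exon. JUNB shared 259 exon bases, 14.2% of its exons, with HOOK2 on the opposite strand, which had 450 and 279 counts. The library protocol does not mark strand, so reads over those bases cannot be told apart.

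The FOS family was unevenly made up. FOSL1 (FRA-1; chr11:65892049-65900573), which lacks the strong activation domain of FOS and is abundant in many tumour lines, stood at 142.2 and 151.7 TPM, a mean of 147.0 ± 6.71 (SD, n = 2). FOSL2 (FRA-2; chr2:28392448-28417317), its close relative with a role in bone cells, stood at 99.8 and 122.4 TPM, a mean of 111.1 ± 16.0. FOS (chr14:75278826-75282230), the classical partner of JUN, stood at 10.8 and 12.7 TPM, a mean of 11.8 ± 1.32, and lay at percentile 49.1 among the 17148 genes that reached 10 counts in each library (74.0 among genes with at least 1 count in either). FOSB (chr19:45467995-45475179) stood at 2.34 and 1.51 TPM, a mean of 1.93 ± 0.587, at percentile 14.8 of the same 17148 genes (51.4 among genes with at least 1 count in either).

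The FRA genes, FOSL1 and FOSL2, stood far above FOS and FOSB in both libraries. FOSL1 exceeded FOS by 13.1-fold in replicate 1 and 11.9-fold in replicate 2, and FOSL2 exceeded FOS by 9.22-fold and 9.65-fold. FOSL1 made up 54.2% ± 2.21 of the summed FOS-family TPM, FOSL2 40.8% ± 2.38, FOS 4.32% ± 0.113 and FOSB 0.720% ± 0.278. With the longest transcript of each gene in place of the exon union, the shares were 53.9%, 39.2%, 5.89% and 0.937%. The excess over FOS was then smaller, 9.62-fold and 8.75-fold for FOSL1 and 6.49-fold and 6.8-fold for FOSL2. The JUN family as a whole, at 816.5 and 796.2 TPM, exceeded the FOS family, at 255.2 and 288.4 TPM, by 3.2-fold and 2.8-fold. With longest transcripts this was 2.97-fold and 2.57-fold.

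**Figure D3:**
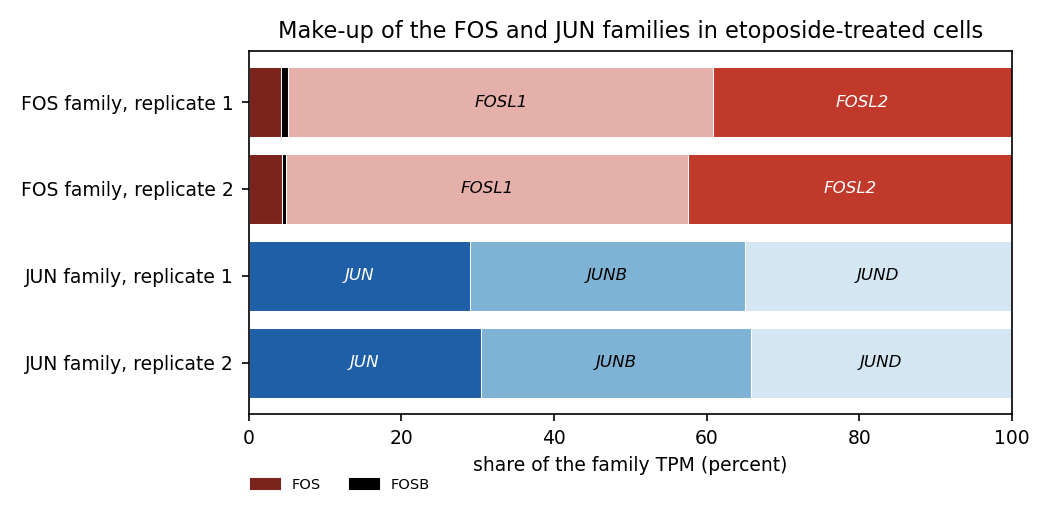
Share of the summed TPM of the FOS family and of the JUN family taken by each gene in each etoposide library (percent, stacked bars, 1 bar per library). FOSL1 and FOSL2 fill nearly the whole FOS family, with FOS and FOSB at its left edge, while JUN, JUNB and JUND take similar parts of theirs.

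Of the other 3 genes, ATF3 (chr1:212565334-212620777), a stress-induced factor that p53 is known to activate after DNA damage, stood at 83.4 and 91.0 TPM, a mean of 87.2 ± 5.41 (SD, n = 2). EGR1 (chr5:138465479-138469303) stood at 38.6 and 56.4 TPM, a mean of 47.5 ± 12.6. IER2 (chr19:13150411-13154911) stood at 38.9 and 38.0 TPM, a mean of 38.5 ± 0.585. EGR1 and IER2 overlapped, since they were level in replicate 1 and EGR1 was 1.48-fold higher in replicate 2. IER2 shared 946 exon bases, 30.7% of its exons, with an annotated noncoding gene on the opposite strand and 662 bases with another, and both were at 0 counts in both libraries. JUNB and IER2 lie 357 kb apart on chromosome 19, which holds 4 of the 10 genes, and FOS lies 145 kb from JDP2, a repressive AP-1 partner.

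In order of mean TPM, the genes ran JUNB, JUND, JUN, FOSL1, FOSL2, ATF3, EGR1, IER2, FOS and FOSB. In 7 of the 9 neighbouring pairs the library values did not overlap and both libraries gave the same order. JUNB with JUND and EGR1 with IER2 were the exceptions. With exon unions as the length, the widest steps were at the low end, from IER2 to FOS (3.6-fold and 3.0-fold) and from FOS to FOSB (4.63-fold and 8.41-fold). With the longest transcript of each gene as its length, ATF3 moved above FOSL1 and FOSL2, and 7 of the 10 genes kept their place. The means were then 89.3 TPM for FOSL2, 35.8 for EGR1, 30.4 for IER2, 13.4 for FOS and 2.13 for FOSB. By that length the step from FOSL2 to EGR1 was wider than the step from IER2 to FOS, and the step from FOS to FOSB stayed the widest.

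**Figure D4:**
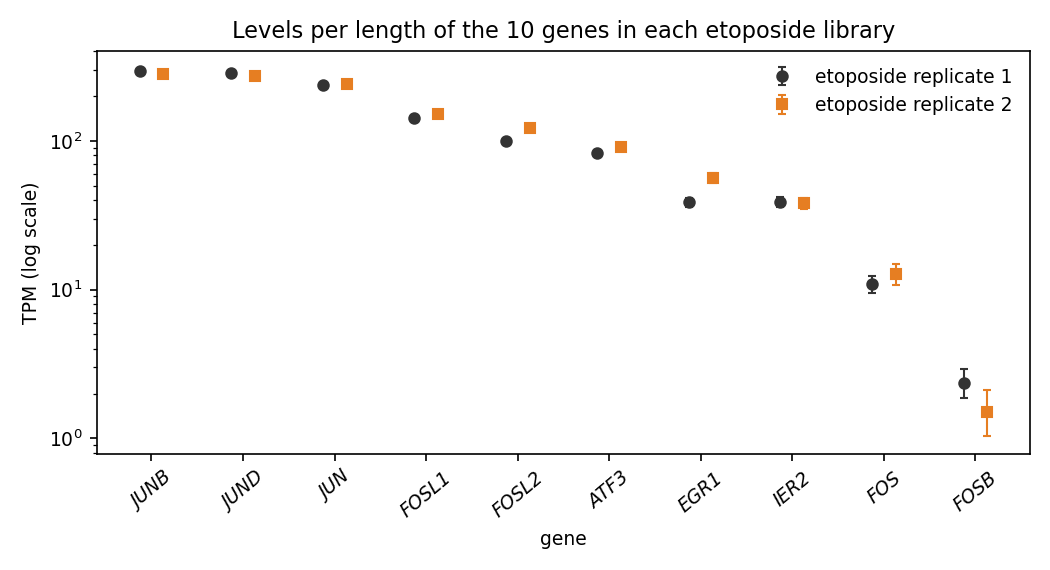
TPM of each of the 10 genes (log scale) in etoposide replicate 1 (circles) and replicate 2 (squares), ordered by mean, with bars for the 95% exact Poisson interval, which covers counting error only. The values span from 1.51 TPM for FOSB to 293.7 for JUNB, and the libraries are farthest apart for FOSB and EGR1.

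Whether the etoposide libraries differed at a gene was asked with an exact two-sided binomial test of how its counts split between them, adjusted by the Benjamini-Hochberg method over 17207 genes. This test compares those libraries, not conditions, and takes counting error as the only error. It called 2 of the 10 genes at an adjusted p under 0.05, both higher in replicate 2, against 18.9% of all genes tested (11.7% higher and 7.23% lower in replicate 2). With TMM or DESeq2 scaling it called 4 of the 10, 2 higher and 2 lower, against 20.1% and 20.0% of all genes. EGR1 had 755 and 717 counts, or 35.2 and 50.3 CPM, 1.43-fold higher in replicate 2 (log2 ratio 0.52, adjusted p = 5.03e-10, exact binomial test). FOSL2 had 4454 and 3556 counts, or 207.6 and 249.6 CPM, 1.2-fold higher (log2 ratio 0.27, adjusted p = 3.6e-14, exact binomial test). Of the 5217 genes with counts within 2-fold of those of EGR1, 0.46% were at least as far apart between the libraries, and of the 1652 genes like FOSL2 5.15% were.

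Among genes within 1.2-fold in transcript length and 3 percentage points in GC content, the median log2 ratio between the libraries was 0.18 for the 305 genes like FOSL2 and 0.04 for the 591 genes like EGR1; the part of length and base composition in these differences was not tested. When the spread between libraries was estimated over all genes (edgeR exact test with trended dispersion), 0 of the 10 genes and 0.0465% of all genes were called. This edgeR test took its spread from the same libraries, treated as 1 group. Differences shared by many genes thus counted as spread, and few calls could follow from that test. That test gave EGR1 an adjusted p of 0.973, and gave 1 of the 10 genes an unadjusted p under 0.05, where the binomial test gave 6; over all genes tested these shares were 4.43% and 29.9%.

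The other genes lay closer together or had few counts. JUN had 249.5 and 250.0 CPM, a log2 ratio of 0.0029 that turned to -0.05 with TMM scaling. JUNB had 156.2 and 146.7 CPM and JUND 160.2 and 149.6, with adjusted p of 0.1 and 0.0629 in the exact binomial test. Their log2 ratios were -0.09 and -0.10, and both were called, lower in replicate 2, once the libraries were scaled by TMM or DESeq2 factors. FOSB had 81 and 34 counts, or 3.78 CPM (95% exact Poisson interval 3.0 to 4.7) and 2.39 CPM (1.7 to 3.3), and was not called (log2 ratio -0.66, adjusted p = 0.112, exact binomial test). FOS had 215 and 164 counts, or 10.0 CPM (8.73 to 11.5) and 11.5 CPM (9.82 to 13.4), and was not called either (log2 ratio 0.20, adjusted p = 0.404). FOSL1, ATF3 and IER2 had log2 ratios of 0.06, 0.10 and -0.06, against a standard deviation of 0.34 over all genes.

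**Figure D5:**
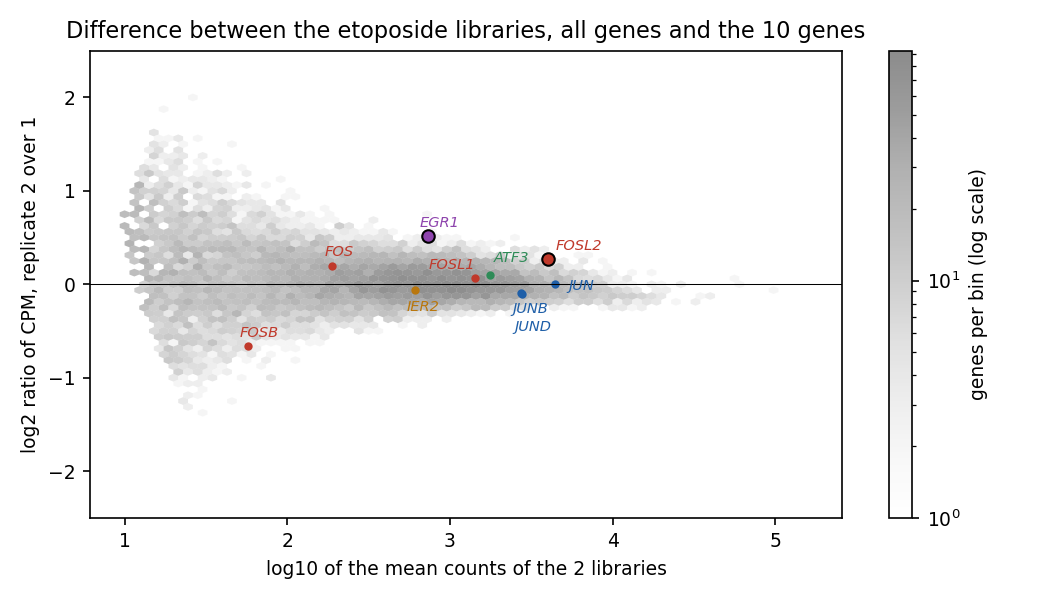
Log2 ratio of CPM between etoposide replicate 2 and replicate 1 against the log10 of the mean counts, for all genes with at least 10 counts in both libraries (grey, darker for more genes) and the 10 genes (coloured, ringed in black where the exact binomial test called them). EGR1 at 0.52 and FOSL2 at 0.27 lie toward the upper edge of genes of like counts, and FOSB at -0.66 lies among genes of few counts.

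The ends of the transcripts were searched for ATTTA, the pentamer of AU-rich elements, in the last 300 bases of the canonical transcript, and compared with 15743 protein-coding genes whose 3' untranslated region is at least that long. All 10 genes met this length. FOS held 5 pentamers, as many as or more than which were found in 0.667% of coding genes, and was the one gene of the 10 with the nonamer TTATTTATT, present in 2.19% of coding genes. JUN and JUNB held 2 each (20.1% of coding genes have at least as many), and FOSL1, ATF3 and EGR1 held 1 each (49.3%). FOSB, FOSL2, JUND and IER2 held 0 in that stretch. Over the whole 3' untranslated region the counts were 9 in FOSL2, whose region is 4869 bases long, 3 each in FOSB, JUN and ATF3, 1 in JUND and 0 in IER2. At least 1 pentamer in the last 300 bases was thus found in 6 of the 10 genes, against 49.3% of coding genes. Of the proteins that bind such elements, all 6 listed were measured, led by KHSRP at 249.4 TPM and HNRNPD at 175.3, both of which act in mRNA decay. ZFP36 (TTP), itself an immediate-early product that binds the nonamer, stood lowest at 14.9 and 18.6 TPM. Of these 6 genes the binomial test called 2 higher and 1 lower in replicate 2, against 11.7% and 7.23% of all genes.

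Among 12 further AP-1 partners, 10 had at least 10 counts in both libraries, with a median of 22.8 TPM. ATF4, the effector of the integrated stress response, was highest at 576.9 and 510.8 TPM, followed by the small MAF proteins MAFK (172.5 and 169.8) and MAFG (109.1 and 113.3), which lack an activation domain. BATF, the neighbour of FOS at 240 kb, had 1 and 0 counts. ATF2, the partner of JUN at the JUN promoter, stood at a mean of 10.7 TPM. In this list the binomial test called 2 of the 10 genes measured, ATF4 and BATF3, both lower in replicate 2, against 18.9% of all genes.

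Of the remaining EGR genes and the EGR partners, NAB2 and NAB1, corepressors that bind EGR proteins, were highest at 96.1 and 63.8 TPM (means). EGR2 had 27 and 35 counts, EGR3 122 and 88 counts, and EGR4 1 and 4 counts, against 755 and 717 for EGR1. EGR2, 1 of the 5 genes measured in this list, was called higher in replicate 2, against 11.7% of all genes (log2 ratio 0.97, adjusted p = 0.0491, exact binomial test). EGR3 and WT1, a zinc finger relative of the EGR proteins, stood at 4.10 and 8.01 TPM and were not called.

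The kinases that signal to these promoters were present at moderate levels: 13 of 14 genes passed 10 counts in both libraries, with a median of 29.3 TPM, MAP2K2 at 73.6 and MAPK3 at 70.8, and MAPK10, the neuronal JNK, at 1 and 0 counts. MAPK8 and MAPK9, the JNK genes whose products phosphorylate JUN, stood at 23.9 and 29.3 TPM. All 10 factors that act at the promoters passed, led by SRF at 126.7 TPM and its cofactors ELK1 at 95.9 and ELK3 at 64.6. In the kinase list and in the factor list the binomial test called 2 of 13 and 2 of 10 genes, all higher in replicate 2, against 18.9% of all genes in either direction and 11.7% in this one.

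Of 24 other immediate-early genes, 22 passed 10 counts in both libraries, with a median of 75.4 TPM, against 12.33 over all genes. The highest were ID1, an inhibitor of basic helix-loop-helix factors, at 1472 TPM, IER3 at 628.4 and CCN1, a matrix-associated protein, at 359.7. KLF4 (8 counts in each library) and DUSP6 (3 in each), an ERK phosphatase, had too few counts. In this list 2 of the 22 genes were called higher and 5 lower in replicate 2, against 11.7% and 7.23% of all genes. Of 16 genes widely described as AP-1 targets, 14 passed, with a median of 57.8 TPM, among them TIMP1 (810.0) and CCND1 (304.3). MMP1, the collagenase whose promoter is a classical AP-1 reporter, had 5 and 9 counts, and IL6 had 20 and 6. In this list 2 of the 14 genes were called higher and 1 lower in replicate 2, against the same shares of all genes.

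The labelled cell type was checked against markers. Of 11 osteoblast and mesenchymal markers, 7 passed 10 counts in both libraries, with COL1A1 at 1368 TPM, SPARC at 849.3 and VIM at 551.0. The others that passed were lower: FN1 at 113.8 TPM, CDH2 at 52.9, ALPL at 11.2 and RUNX2 at 2.03. COL1A2, IBSP, BGLAP and SP7 had under 10 counts in a library. The summed level of the 11 markers was 6113 and 6299 CPM, of which COL1A1 alone gave 3463 and 3624. Of 9 epithelial markers, 7 passed, with KRT8 at 451.0 TPM and KRT18 at 251.7, EPCAM at 18.2 and CDH1 at 0.802, and KRT19 and CLDN3 had under 10 counts. Their summed level was 1217 and 1103 CPM. The 5 blood and endothelial markers summed to 1.68 and 2.04 CPM. In bulk RNA, fewer cells that express a gene and less RNA per cell cannot be told apart, and this holds for each level given here.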

How the data were processed

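Poly-A RNA was sequenced on a NovaSeq instrument as paired reads of 150 bases. Per the labels and the study's methods, the authors aligned reads to GRCh38 with HISAT2 2.1.0 and counted them per gene with featureCounts of Subread 2.0.0. The annotation release and the handling of strand and of multiply mapped reads are not given in the sources used here. The deposited values are raw counts. The control and adriamycin tables end after 220 to 292 genes, and an incomplete last line was dropped.

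CPM used the library totals. TPM used exon unions of GENCODE release 44, which matched 60357 of 67140 gene identifiers; the 6783 others held 0.0411% and 0.0445% of the counts. Intervals are exact Poisson intervals at 95%, and with intervals and binomial p-values cover counting error only, since reads carried no molecular identifiers. The study's test between groups (DESeq2 1.30.1) could not be run on these genes. Libraries were compared by exact binomial tests (scipy 1.17.1) over genes with at least 10 counts in both, called at an adjusted p under 0.05. Alternatives were edgeR 4.0.16 (TMM, exact test) and DESeq2 1.42.0 size factors. Each test was tried on its own simulated libraries with 200 genes changed 2-fold, drawn only from genes with more counts in both libraries than FOSB had. The binomial test recovered 99.5% where counts carried counting error only. The edgeR exact test recovered 84.5% where counts also carried spread between libraries. The settings differ, so these rates cannot be set side by side. Neither rate covers genes with as few counts as FOSB. The first setting lacks the spread beyond counting error estimated in the real libraries (coefficient of variation 7.91%). Promoters are from RefSeq (GRCh38.p14). The 10 genes and the lists were chosen with earlier results of these data known. All 10 genes are named; of each list, the 2 or 3 with the highest mean TPM and those under 10 counts in a library, and a few others chosen after their values were seen. Some genes of the lists are not reported here by name.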

Additional observations from a re-analysis of the deposited data

How the results depend on the processing

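The CPM of all 10 genes moved by less than 1 SD between libraries with TMM or DESeq2 scaling, and the values from each library alone are those given above: 10.0 to 11.5 CPM for FOS, 2.39 to 3.78 for FOSB, 78.0 to 81.5 for FOSL1, 207.6 to 249.6 for FOSL2, 249.5 to 250.0 for JUN, 146.7 to 156.2 for JUNB, 149.6 to 160.2 for JUND, 96.9 to 103.6 for ATF3, 35.2 to 50.3 for EGR1 and 33.4 to 34.8 for IER2. In the order by level, 8 to 10 genes kept their place with 1 library alone and 7 with longest transcripts, but 4 with CPM, which ignores length (JUN, FOSL2, JUND, JUNB, ATF3, FOSL1, EGR1, IER2, FOS, FOSB). Between the libraries, 2 genes were called in the binomial test, 4 with TMM and 4 with DESeq2 factors (FOSL2, EGR1, JUNB and JUND), which also called 20.1% and 20.0% of all genes, and 0 in the edgeR exact test. The cause of the added calls is the scaling, which moved every log2 ratio by -0.05. The log2 ratio of JUN reversed from 0.0029 to -0.0452 (TMM), -0.0433 (DESeq2) and -0.0452 (edgeR), and JUN was called in none of these. Against genes with at least 1 count in either library, FOS lay at percentile 74.0 and FOSB at 51.4. No paired analysis was possible because the 10 genes have counts in the libraries of 1 group. Depth limits FOSB most, and 2 libraries give no measure of variation between cultures.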
